A study of Mus musculus with 15 samples.

Results

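The genes of the LIF-STAT3 pathway described here are Lif, Lifr, Il6st, Jak1, Stat3 and Socs3, chosen by their symbols from the count tables of an RNA-seq study of mouse embryonic stem cells (ESC). All 6 were among the 21662 genes of each table, and all 6 passed the filter of a mean count of at least 10 in both tables. ESC are the pluripotent cells taken from the early embryo, and the study asked how loss of Hmga1, an AT-hook chromatin protein, and return of Hmga1 or Hmga2 change their transcription. The KO experiment held 9 samples and the full-deletion experiment held 6, with letters a, b and c for separate cultures.

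In the KO experiment 3 samples (a, b, c) were the parental wild-type (WT) line, a mixed 129Sv-C57Bl/6 ESC line that carries a BirA-V5 biotin ligase. A further 2 samples (a, b) came from the KO, derived from that line by Cas9 cutting at exon 3 of Hmga1 with a shift of the reading frame. Each add-back (2 samples, a and b) was made of KO cells with a biotin-tagged Hmga1 or Hmga2 cDNA under a CAG promoter at a defined locus. In the full-deletion experiment 3 WT samples were set against 3 samples of a line whose Hmga1 coding sequence had been removed with a pair of guides. Each genotype was a single line, so a difference between genotypes cannot be told apart from a difference between clones. All cells, WT included, grew in medium with serum and added LIF.

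LIF is a secreted cytokine of the interleukin-6 family. It binds the LIF receptor, Lifr, which pairs with the shared subunit gp130, the product of Il6st, and the Janus kinase Jak1 bound to these receptors then phosphorylates Stat3, which enters the nucleus. Mouse ESC in serum depend on this signal to stay undifferentiated, and Stat3 switches on its own inhibitor Socs3, which binds gp130 and the kinases and closes the loop. RNA counts show the level of these transcripts and carry no measure of receptor binding or phosphorylation.

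Phosphorylated STAT dimers bind the palindrome TTCNNNGAA, and Socs3 was the only 1 of the 6 genes with this motif within 250 bases before and 50 after a RefSeq start site. The motif lay 150 bases before the start of Socs3 and, with the flanks shown, at chr11:117969502-117969530 on the minus strand of GRCm38.p6, a later build than the files use. Of the 59 other pathway genes listed here by role, 43 had a RefSeq promoter, and 3 of them held the motif: Cish, Gab1 and Sgk1. The sequences below show each match with 10 flanking bases a side (the motif in capitals), since Socs3 is the target gene of the set and Gab1 is among the genes that fell in the full deletion. Cish has a pair of matches, of which the first is shown.
Socs3: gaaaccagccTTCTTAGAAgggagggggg
Cish: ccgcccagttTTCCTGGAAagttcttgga
Gab1: ccggaggagtTTCAGAGAAagtctgggct
Sgk1: gaaaaaccaaTTCAAAGAAccctcccaag
The pattern of letters is the same on both strands, and 9.55% of the 27025 genes with a RefSeq promoter held it. The other matches lay at chr9:107296649-107296677 (Cish, plus strand), chr8:80880473-80880501 (Gab1, minus strand) and chr10:21881951-21881979 (Sgk1, plus strand). With the start sites of the NCBIM37 annotation instead, 0 of 6 genes held the motif in a window of the same length, as did 7.98% of 22233 genes. Of the other pathway genes, 2 of 58 held it there, Gab1 and Sgk1, and Cish did not. A match is a string of letters and no measured binding site.

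In NCBIM37, the build of the counts, Lif lies at chr11:4157560-4172517 on the plus strand, Lifr at chr15:7079559-7147489 on the plus strand and Il6st at chr13:113265216-113297068 on the plus strand. Jak1 lies at chr4:100824972-100937887, Stat3 at chr11:100746412-100800854 and Socs3 at chr11:117827393-117831361, all on the minus strand. All 6 are protein coding, and counts cover exons only.

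Counts on genes summed to 13465399 to 34952136 in the samples of the KO experiment and to 14832310 to 21708492 in those of the full-deletion experiment. In the KO experiment the letters are batches of library preparation and flow cell, and the 4 samples of batch a (30742898 to 34952136 counts) were deeper than the 4 of batch b (13465399 to 14585417). In the full-deletion experiment WT b stood apart, with a TMM normalization factor of 0.752 against 0.986 to 1.12 in the other 5 samples. Hmga1 was 310 to 356 CPM in WT and 10.9 to 12.3 CPM in the full deletion, where CPM are counts rescaled to equal TMM library sizes. In the KO, whose frameshift does not remove the gene, Hmga1 was 217 CPM in sample a and 96.0 in b against 464, 276 and 220 in WT. The Hmga1 add-back stood at 184 and 123 CPM. Hmga1 shares reads with a pseudogene, a read with several alignments was placed at 1 of them, and whether the tagged cDNA was counted in full was not tested, so these values do not measure how much Hmga1 the add-back made. Hmga2 stood at 249 and 222 CPM in the Hmga2 add-back and at 12.8 to 23.8 CPM in the other samples. The 10 ESC marker genes summed to 5460 to 6610 CPM in the KO experiment. In the other experiment they summed to 5320 to 8220 CPM in WT and 4710 to 4840 in the full deletion. In the KO experiment 8 markers of primitive endoderm summed to 232 to 386 CPM in WT and 120 to 247 in the KO. Their sum was 156 to 408 CPM in the Hmga1 add-back and 185 to 213 in the Hmga2 add-back, and these sums were not tested. Of the 12 markers of feeder fibroblasts, on which ESC can be grown, 6 or 7 were under 1 CPM in each group. Their sum was 11.2 to 36.8 CPM and was lower in WT than in every other line of its experiment. In the KO experiment it was 13.3 to 17.9 CPM in WT and 20.6 to 28.9 in the KO. Both add-backs were above the WT range as well. In the other experiment it was 11.2 to 14.8 CPM in WT and 19.3 to 20.4 in the full deletion. The feeder sums were not tested between genotypes. In these bulk samples a lower share of cells with a transcript cannot be told apart from less transcript per cell.

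The 6 genes spanned a wide range of levels. Compared per length of exon, as reads per kilobase scaled to library size (RPKM), Socs3 was the highest, with a median of 45.4 over the KO experiment and 28.8 over the full-deletion experiment, above 92.4% and 89.1% of genes. Stat3 followed at 27.4 and 20.9 RPKM. The receptor subunits stood close together, with Lifr at 21.3 and 12.9 RPKM and Il6st at 18.1 and 17.6. Jak1 was lower, at 10.2 and 7.05 RPKM. Lif, which ESC in these cultures receive from the medium, was lowest at 0.832 and 0.519 RPKM.

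This order held in most samples. Socs3, Stat3, Lifr, Il6st, Jak1 and Lif stood in that order in 6 of 9 samples of the KO experiment. In sample a of both add-backs Il6st was above Lifr, and in WT b Lifr was above Stat3. In 5 of 6 samples of the full-deletion experiment the order was Socs3, Stat3, Il6st, Lifr, Jak1, Lif, and in WT b Stat3 was above Socs3. The experiments were normalized separately, so the lower Lifr and Socs3 levels in the second were not tested.

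**Figure D1:**
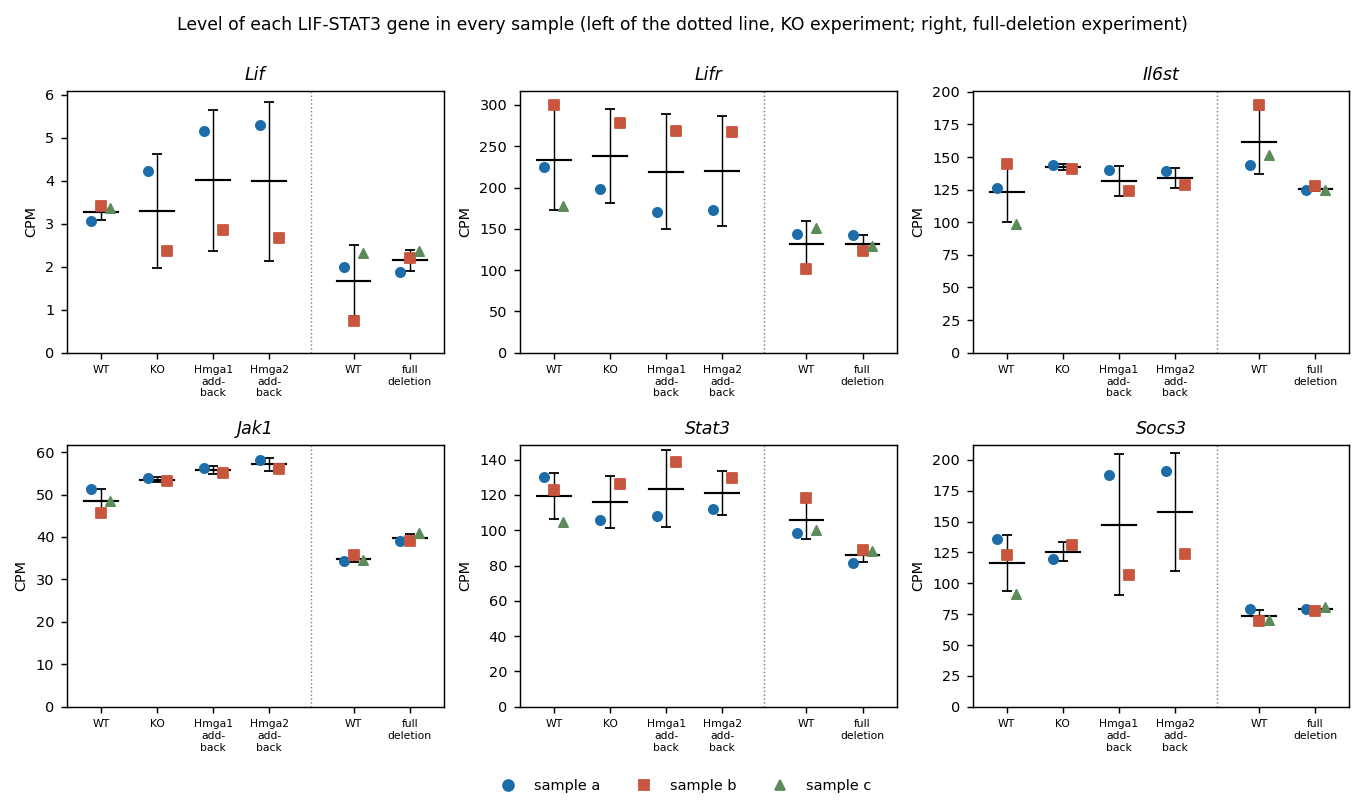
Level of each of the 6 genes in CPM (y axis from 0) in the 15 samples by group (x axis); points are samples a, b and c, the horizontal line is the group mean and the bar is 1 SD, over 2 samples where a group has 2. Within the KO experiment Lifr separates by batch, with b above a in all 4 lines, and in the full-deletion experiment the groups of Il6st, Stat3 and Jak1 do not overlap, as for 51.3% of the genes tested, with adjusted p of 0.0900 to 0.167.

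None of the 6 genes passed the test in any genotype of the KO experiment. The log2 fold changes ranged from -0.15 to 0.14 between KO and WT, -0.28 to 0.28 for the Hmga1 add-back, and -0.27 to 0.27 for the Hmga2 add-back. The p values of edgeR's quasi-likelihood test, adjusted by Benjamini-Hochberg over all genes, were 0.604 to 1.0, 0.340 to 0.913 and 0.263 to 0.968. A call needed an adjusted p under 0.01 and at least a 2-fold change, the study's own thresholds, and a looser count used an adjusted p under 0.05 alone. In these comparisons 0 of 6 members met either rule, and few genes of any kind did: 0.0216% and 0.0647% of 13912 genes in KO against WT, 0.0144% and 0.0431% for the Hmga1 add-back and 0.0647% and 0.165% for the Hmga2 add-back. The add-backs also showed 0 of 6 members called against the KO, where 0% and 0% of genes were called for Hmga1 and 0.00719% and 0.0144% for Hmga2. In the Hmga1 add-back against the KO, where edgeR called 0 genes, 390 genes had an unadjusted p under 0.05, limma-trend passed 0 genes and DESeq2 passed 12 at an adjusted p under 0.05. The batch term of the fit takes up WT c, the only sample of batch c, so these values rest on samples a and b. The low share of genes that passed depended on WT b. Without it, far more genes passed in each comparison with WT, in a fit where WT rests on sample a alone.

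Lif, the ligand, was read from few counts. In the KO experiment, with samples given here in the order a, b and c, WT read 3.07, 3.41 and 3.36 CPM and the KO read 4.23 and 2.36. The Hmga1 add-back read 5.17 and 2.85 CPM, and the Hmga2 add-back read 5.30 and 2.67. The KO and both add-backs were each higher than WT in batch a and lower than WT in batch b, so the groups overlapped. The counts behind these values were 31 to 180, and the exact Poisson 95% interval of KO b (31 counts) ran from 1.60 to 3.34 CPM, an interval that covers counting error only. The log2 fold change of KO against WT was 0.00 (SE 0.36, edgeR adjusted p = 1.0), with a 95% interval of -0.82 to 0.82, so changes within that range were not detectable.

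Lifr, the ligand-binding receptor subunit, differed more between batches than between genotypes. WT read 225, 299 and 177 CPM and the KO 198 and 278. The add-backs stood at 170.0 and 268 CPM with Hmga1 and at 173 and 268 with Hmga2. Every b sample was above every a and c sample. Within each batch WT was the highest line, with log2 ratios of KO to WT of -0.18 (batch a) and -0.11 (batch b). The fitted log2 fold change against WT was -0.15 (SE 0.11) for the KO, -0.28 (SE 0.11) with Hmga1 added back and -0.27 (SE 0.11) with Hmga2, with edgeR adjusted p of 0.604, 0.340 and 0.263.

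Il6st encodes gp130, the subunit that all cytokines of this family share. Its WT levels were 126, 144 and 98.9 CPM, and the KO stood at 144 and 141. With Hmga1 added back it read 140.0 and 124 CPM, and with Hmga2 139.6 and 129. WT spanned the whole range of the other lines, and each of the 3 lines was above WT in batch a and below it in batch b. The log2 fold change of KO against WT was 0.07 (SE 0.12, edgeR adjusted p = 0.840).

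Jak1, the kinase that gp130 engages, had the narrowest range of the 6 genes in this experiment, 1.27-fold from the lowest to the highest sample. WT stood at 51.3, 45.7 and 48.5 CPM and the KO at 54.0 and 53.1. The add-backs stood at 56.3 and 55.0 CPM (Hmga1) and at 58.2 and 56.0 (Hmga2). All 6 samples of the KO and the add-backs were above all 3 WT samples, the only member of which this was true, and 8.84% of the genes tested had groups apart in this way. The log2 fold changes were 0.14, 0.20 and 0.24 (SE 0.11 each), with edgeR adjusted p of 0.620, 0.464 and 0.318. Both add-backs descend from the KO line and all 3 lines share the WT samples, so they are no separate tests.

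Stat3, the transcription factor of the pathway, read 130, 123 and 105 CPM in WT, against 106 and 126 in the KO. Adding back Hmga1 gave 108 and 139 CPM, and adding back Hmga2 gave 112 and 130. Batch b was higher than batch a in the KO and both add-backs and lower in WT, and all groups overlapped. The log2 fold change of KO against WT was -0.14 (SE 0.13, edgeR adjusted p = 0.689).

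Socs3, the feedback inhibitor and STAT3 target, varied most within the add-backs. WT levels were 136, 123 and 91.7 CPM and KO levels 120.1 and 131. The Hmga1 add-back stood at 188 and 107 CPM, the Hmga2 add-back at 191 and 124. The a sample of both add-backs was above all 7 other samples, while their b samples lay within the WT range of 91.7 to 136. Against the KO, the log2 ratio was 0.65 (batch a) and -0.30 (batch b) for Hmga1, and 0.67 and -0.09 for Hmga2. The fitted log2 fold changes against WT were -0.03 (SE 0.21) for the KO, 0.15 (SE 0.21) with Hmga1 added back and 0.26 (SE 0.21) with Hmga2, with edgeR adjusted p of 0.971, 0.768 and 0.522.

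**Figure D2:**
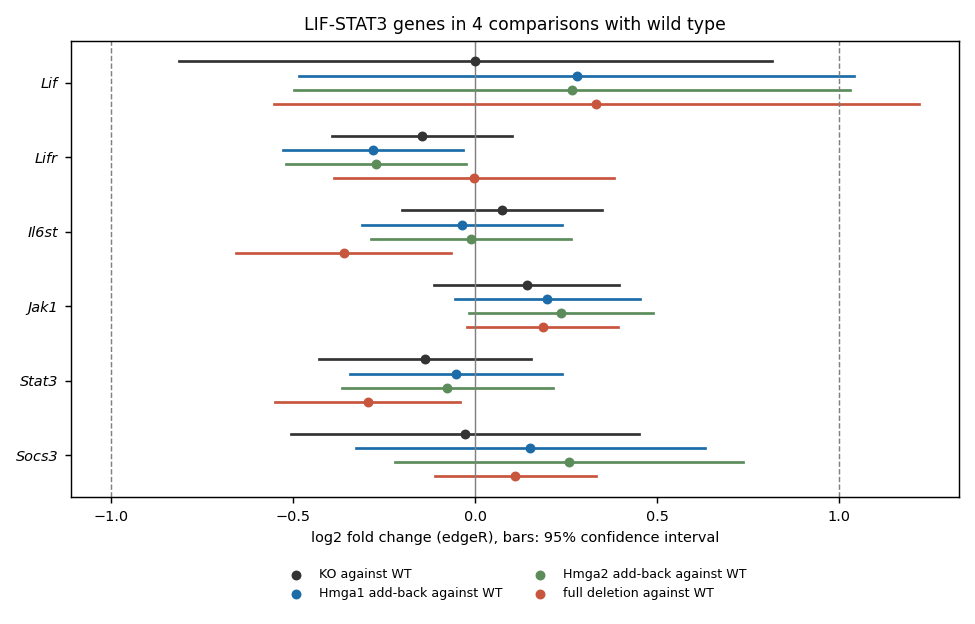
Log2 fold change against WT (x axis) of each gene (y axis) in the KO, the 2 add-backs and the full deletion; points are edgeR estimates, bars are 95% confidence intervals, and dashed lines mark a 2-fold change. Lif has the widest intervals (-0.82 to 0.82 in KO), and all point estimates lie between -0.36 and 0.33.

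Between batches of the KO experiment, Lifr was the member that differed. Its ratio of batch b to batch a was 1.33 for WT, 1.4 for the KO, and 1.58 and 1.55 for the Hmga1 and Hmga2 add-backs. The fitted log2 difference was 0.55 (SE 0.08, edgeR adjusted p = 0.00234). Batch moved many genes: 2.34% met the call rule, which 0 of 6 members did, and 35.6% had an adjusted p under 0.05, which 1 of 6 members did.

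Lif and Socs3 had lower levels in batch b in the fit, without passing the test. Their log2 differences were -0.64 (SE 0.24, edgeR adjusted p = 0.0669) and -0.36 (SE 0.15, adjusted p = 0.0887). Lif was lower in b in the KO and both add-backs and higher in WT, by ratios of 0.505 to 0.556 and 1.11. Socs3 was lower in b in 3 of 4 lines, at 0.570 and 0.647 in the add-backs and 0.906 in WT, and higher in KO at 1.09. Stat3 stood at 0.19 (SE 0.09, adjusted p = 0.138), Il6st at -0.03 and Jak1 at -0.07. Batch a was deeper than batch b in every line, the 12 feeder markers summed to 17.9 to 36.8 CPM in a and 13.3 to 21.7 in b, and the ESC markers to 5460 to 6370 and 6150 to 6610, and the part of these in the batch differences was not tested.

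**Figure D3:**
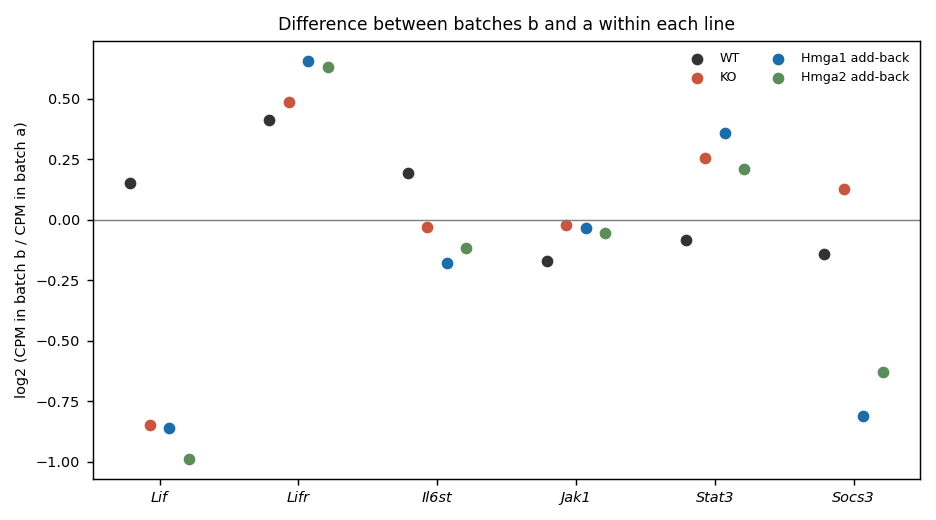
Log2 ratio of CPM in batch b to CPM in batch a (y axis) for each gene (x axis) in the 4 lines of the KO experiment, 1 point a line. The 4 Lifr points lie between 0.41 and 0.66, whereas the points of Lif, Il6st, Stat3 and Socs3 fall on both sides of 0.

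In the full deletion, the receptor subunit Il6st and the transcription factor Stat3 had lower levels than in WT and Jak1 a higher level, each with no overlap of the 3 samples a group, and none passed the test. Non-overlap was common in this experiment: it held for 3 of 6 members and for 51.3% of the genes tested. Il6st read 144, 189 and 151 CPM in WT, again in the order a, b, c, and 124, 128 and 125 once Hmga1 was deleted. WT b was the highest sample, and the lowest WT sample was still above the highest sample of the full deletion. The log2 fold change was -0.36 (SE 0.13, edgeR adjusted p = 0.0900).

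Stat3 was 98.6, 118 and 100.2 CPM in WT and 81.4, 88.7 and 88.4 in the full deletion. Again WT b was the highest and the groups stood apart. The log2 fold change was -0.29 (SE 0.11, edgeR adjusted p = 0.100). Jak1 was 34.3, 35.7 and 34.7 CPM in WT and 39.0, 39.1 and 41.0 in the full deletion, a log2 fold change of 0.19 (SE 0.09, adjusted p = 0.167).

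The ligand, Lifr and Socs3 showed overlapping groups. Lif was 1.99, 0.735 and 2.31 CPM in WT and 1.87, 2.20 and 2.36 in the full deletion, from 12 to 52 counts. The lowest value, WT b with 12 counts, had an exact Poisson 95% interval of 0.380 to 1.28 CPM, and the log2 fold change was 0.33 (SE 0.38, edgeR adjusted p = 0.534). Lifr was 144, 101 and 151 CPM in WT and 143, 123 and 129.5 in the full deletion, with WT b the lowest of all. Its log2 fold change was 0.00 (SE 0.17, adjusted p = 0.99). Socs3 was 79.6, 69.9 and 70.6 CPM in WT and 79.4, 77.8 and 80.6 in the full deletion, a log2 fold change of 0.11 (SE 0.10, adjusted p = 0.411).

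At the call rule 0 of 6 members and 0.0687% of 13098 genes were called, and at an adjusted p under 0.05 0 of 6 members and 8.25% of genes passed. This outcome depended on WT b. Without it, Il6st (-0.23, adjusted p = 0.00253), Stat3 (-0.21, adjusted p = 0.0102) and Lifr (-0.17, adjusted p = 0.0450) were lower and Jak1 (0.20, adjusted p = 0.0293) higher in edgeR's quasi-likelihood test, 4 of 6 members. The count over all genes was higher without it as well, at 42.5% of 13163 genes with an adjusted p under 0.05 and 2.75% at the call rule, which 0 of 6 members met. The log2 fold changes of Il6st and Stat3 were smaller without WT b, and that of Lif moved from 0.33 to 0.01. They depended on normalization too. With libraries scaled by summed counts alone, without the TMM factors, Il6st was -0.0558, Stat3 0.00359 and Jak1 0.473. Leaving out any 1 of the other 5 samples left 0 of 6 members past the test. Over all genes 1233 of 13116 passed without WT a and 4 of 13114 without WT c. Only 3 genes passed without any 1 sample of the full deletion.

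**Figure D4:**
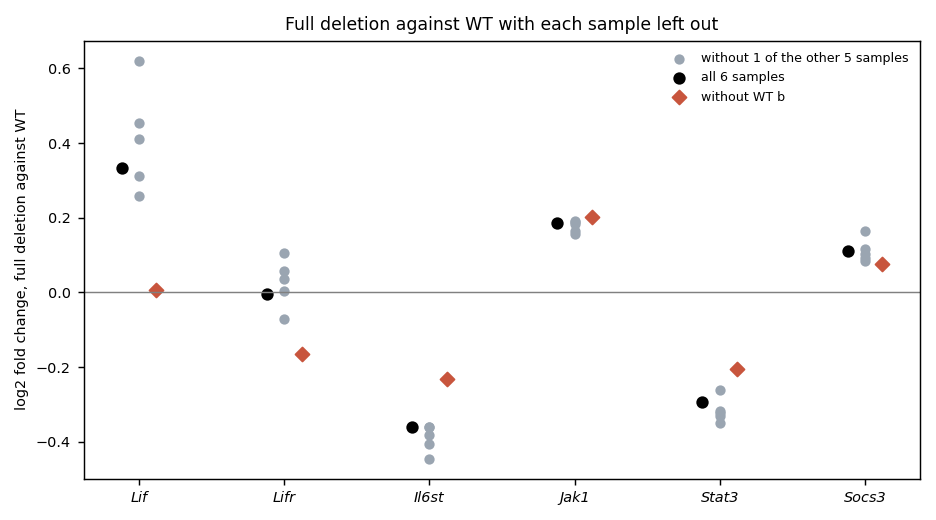
Log2 fold change of the full deletion against WT (y axis) for each gene (x axis) with all 6 samples (black), without WT b (red diamonds) and without each of the other 5 samples (grey). Il6st, Stat3 and Jak1 keep their direction in all 7 fits, and Lif moves to 0.01 without WT b.

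The effect of the full deletion was set against the effect of the KO as an interaction in a joint fit of all 15 samples. Il6st had the largest difference, -0.45 on the log2 scale (SE 0.20), with an edgeR adjusted p of 0.263. The other 5 members ranged from -0.17 to 0.32. None passed, and over all genes 0.0951% met the call rule and 0.307% an adjusted p under 0.05. A difference between the experiments was therefore not shown for these genes, nor was likeness, since the interval for Il6st ran from -0.88 to -0.02 and that for Lif from -0.84 to 1.48.

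The wider pathway was counted from 59 further genes, listed by role. The lists were written with earlier results of these data known, so the shares that passed are descriptions and no test of the pathway. In the KO experiment 54 of them could be tested, and 0 passed an adjusted p under 0.05 in any of the 5 genotype comparisons, though some had folds as large as those given below for the full deletion. In the full deletion 7 of 47 tested genes passed (14.9%, against 8.25% of all genes), 4 higher and 3 lower. The number was 13 with the DESeq2 Wald test (27.7%), 4 with the replicate block (8.51%) and 3 with summed counts (6.38%). Over all 13098 genes 3232, 396 and 664 passed under these settings. The joint fit of both experiments passed 0 of 52. Between batches b and a 17 of 54 passed (31.5%, against 35.6% of all genes), 5 higher and 12 lower, and Bcl3, a STAT3 target, met the call rule at -1.16 (SE 0.13, edgeR adjusted p = 0.00124).

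Among receptors, 1 of 4 tested genes rose in the full deletion, Il11ra1, the interleukin-11 receptor chain. Its levels were 3.08, 1.90 and 2.26 CPM in WT and 4.05, 4.88 and 5.68 in the full deletion. The log2 fold change was 1.0 (SE 0.24, edgeR adjusted p = 0.0450). Of 2 ligands tested, 0 passed, and the highest, the ciliary neurotrophic factor gene Cntf, had 6 to 43 counts a sample.

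Among kinases and STATs, 1 of 9 rose, Stat5b, a STAT used by many cytokine receptors. It was 4.70, 4.41 and 4.38 CPM in WT and 8.83, 8.12 and 8.45 in the full deletion, a log2 fold change of 0.91 (SE 0.13, edgeR adjusted p = 0.0216). Stat5a, its close paralog and the highest of the list, had a log2 fold change of 0.92 and an edgeR adjusted p of 0.0522. Among adaptors, 1 of 6 fell, Gab1, which links gp130 to the ERK and PI3K branches. It was 476, 392 and 465 CPM in WT and 312, 286 and 298 in the full deletion, a log2 fold change of -0.57 (SE 0.12, adjusted p = 0.0383), while Shc1, the highest adaptor, stood at 0.58 without passing.

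Among inhibitors 0 of 14 passed. They ranged from -0.60 for the phosphatase gene Ptpn2 to 1.62 for Socs1, the close relative of Socs3, which had 3 to 32 counts a sample and an edgeR adjusted p of 0.0567. Among the listed STAT3 targets 4 of 12 passed, against 8.25% of all genes, and they did not move together. Gbx2, a homeobox gene that sustains ESC self-renewal, fell from 125, 125 and 128 CPM in WT to 51.7, 60.7 and 58.2, a log2 fold change of -1.15 (SE 0.10, adjusted p = 0.00913), and it was the 1 pathway gene that met the call rule. The transcription factor gene Myc fell from 31.9, 32.5 and 30.3 CPM to 19.8, 17.96 and 17.9, a log2 fold change of -0.77 (SE 0.10, adjusted p = 0.0188). The kinase gene Pim1 rose from 78.4, 48.6 and 73.1 CPM to 122, 118 and 125.5, a log2 fold change of 0.87 (SE 0.18, adjusted p = 0.0361). Ier3, an immediate early gene with 14 to 27 counts in WT and 40 to 59 in the full deletion, rose by 1.21 on the log2 scale (SE 0.29, adjusted p = 0.0494). In the KO experiment Gbx2 had log2 fold changes against WT of -1.72 (KO), -1.55 (Hmga1 add-back) and -1.78 (Hmga2 add-back), and Ier3 1.26, 0.88 and 1.46, none of which passed (edgeR adjusted p of 0.109 to 0.317). The Gbx2 difference was much larger in batch a. There WT read 207.8 CPM against 37.89 (KO), 36.6 (Hmga1 add-back) and 31.53 (Hmga2 add-back). In batch b WT read 125.7 CPM against 86.15, 108.2 and 91.56 in the same order. Role medians of the log2 fold change in the full deletion leave out the 6 members. The median was 0.29 for the 12 tested targets, 0.26 for kinases and STATs, 0.16 for inhibitors and -0.15 for adaptors. It was 0.75 for 4 receptors other than Lifr and Il6st and 0.47 for 2 ligands other than Lif. Over all genes it was 0.04. Il6st itself stood at -0.36 and Lifr at -0.003.

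These calls depended on the samples. Without WT b 22 of 47 pathway genes passed (46.8%, against 42.5% of all genes). Without WT c, or without any 1 sample of the full deletion, 0 of 47 passed, and over all genes 3 or 4 passed. Some fold changes moved less than the calls: with 1 sample left out, Gbx2 was -1.2 to -1.09, Stat5b 0.87 to 0.93 and Myc -0.83 to -0.75. Over all 13 alternatives the ranges were wider. They were -1.2 to -0.863 for Gbx2, -0.825 to -0.482 for Myc, 0.685 to 1.12 for Pim1 and -0.656 to -0.304 for Gab1. Stat5b, Myc and Pim1 lay outside the naming rule, as did Cish and Sgk1, named for their promoter matches, and the first 3 were chosen after their values were seen. The ESC marker Fgf4 was 487 to 545 CPM in WT and 294 to 348 in the full deletion, the epiblast gene Otx2 7.35 to 15.8 and 31.2 to 33.0 CPM, and the feeder marker gene Fbln2 1.49 to 1.84 and 2.91 to 3.93 CPM. These were the markers that passed an adjusted p under 0.05, 1 of 10 ESC, 1 of 6 epiblast and 1 of 5 feeder markers tested, and their part in the pathway values was not tested.

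**Figure D5:**
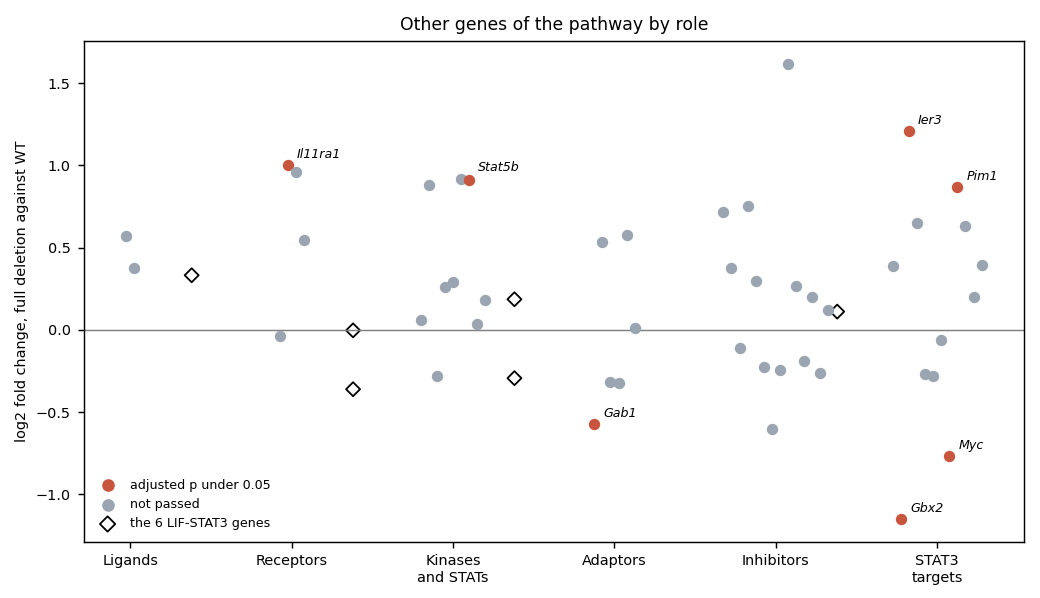
Log2 fold change of the full deletion against WT (y axis) of the 47 tested pathway genes by role (x axis); red points passed an adjusted p under 0.05 and are named, grey points did not, and open diamonds are the 6 LIF-STAT3 genes. The 7 that passed lie on both sides of 0, from -1.15 for Gbx2 to 1.21 for Ier3.

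Across the 15 samples, with each gene centred within its experiment, the correlations between members had both signs. The 15 pairs had Pearson correlations of log2 CPM from -0.73 for Lif and Stat3 to 0.54 for Il6st and Stat3. The receptor pair Lifr and Il6st had a correlation of -0.05, and Stat3 and its target Socs3 one of -0.24. Samples of a batch share library preparation and similar depth, so these are descriptions. In the full-deletion experiment WT b had the lowest Lif (0.735 CPM, from 12 counts) and the highest Stat3 (118 CPM) and Il6st (189 CPM). Correlations without that sample were not computed.

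The genes most like each member over the same samples, of 13050 compared, lay outside the pathway lists. For Lif they were Rnf122 (0.96) and Brsk2 (0.94), for Lifr Thada (0.95) and Gnl3l (0.95), and for Il6st Wdfy3 (0.92). For Jak1 they were Fgd2 (0.92) and 4930502E18Rik (0.91), for Stat3 Secisbp2l (0.95) and Bmp2k (0.93), and for Socs3 Tert (0.95) and Igsf9b (0.94). The 99th percentile of the correlations with each member was 0.78 to 0.84.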

How the data were processed

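Stranded RNA-seq of ribosome-depleted RNA was analysed for 15 samples in 6 groups, taken from the labels. The authors aligned reads to mm9 (NCBIM37) with Bowtie through QuasR, kept 1 random alignment of a read with several, and deposited raw counts per UCSC knownGene gene on the same strand. The submitters' processing notes also name bcl2fastq 2.17. From these counts, TMM-normalized CPM and RPKM were computed, and genes averaging at least 10 counts over a table's samples were tested (13912 and 13098) with edgeR 4.0.16 in R 4.3.3, glmQLFit and glmQLFTest, with Benjamini-Hochberg adjustment over all genes. SE is the log2 fold change divided by the square root of F.

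In the KO experiment all 9 samples were fitted with batch as a term, as in the study. The letters pair samples there: the differences between b and a correlated across genes by 0.32 to 0.76 between lines. The full-deletion fit had no block, since same-letter correlations were 0.06, 0.07 and -0.05. Samples are cultures harvested on different days. In the full-deletion fit the p-values rest on the spread between cultures of the same line. In the KO fit they rest on the spread left after the batch term, pooled over all lines. Neither measures a spread between lines of the same genotype.

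The members and all gene lists were chosen with earlier results of these data known. Pathway genes were named if they met the call rule anywhere or had the lowest or highest change of their list in the full deletion, and for each member the 2 most correlated genes were named (log2 CPM, prior count 2), except 1 gene that is not reported here. Promoters came from RefSeq tables of GRCm38.p6 and, for a second window, the NCBIM37 genome with GENCODE starts. Alternatives were DESeq2 1.42.0 (size factors, Wald test), summed counts, limma-trend (limma 3.58.1, the study's tool), no filter, a mean count of at least 50, the replicate block and leaving out each sample. Scripts were tested on simulated data. Plots used matplotlib 3.10.9 in python 3.11.15.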

Additional observations from a re-analysis of the deposited data

How the results depend on the processing

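The main limits are the 2 or 3 cultures per line, 1 line per genotype and, for Lif, few counts. In the 5 genotype comparisons of the KO experiment and in the interaction, 0 of 6 members passed an adjusted p under 0.05 in every alternative run. In the full deletion the number that passed ranged from 0 to 4 with 1 sample left out (4 without WT b) and was 0 in the other alternatives, among them the fit with the replicate block, where Lifr was 0.0165 and 4 genes in all were called. Between batches it was 2 with the DESeq2 Wald test and 3 with summed counts, where 4683 and 5104 of 13912 genes passed. Without WT a or WT b it was 3, where 5836 of 13874 and 5847 of 14011 genes passed. Over all genes, the full deletion gave 9 calls in edgeR, 463 with the DESeq2 Wald test, 31 with no filter, 3 with summed counts and 362 without WT b. At an adjusted p under 0.05, 1080 genes passed in edgeR, 3232 with the DESeq2 Wald test and 396 with the replicate block.

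Values near 0 changed sign. For KO against WT, Lif was -0.00878 with DESeq2 size factors, -0.0335 with the DESeq2 Wald test, -0.0321 with limma-trend, -0.000671 with summed counts and -0.56 to 0.48 with 1 sample left out. With no replicate block Lifr was 0.0256 and Socs3 0.11. With 1 sample left out, Il6st was -0.0668 to 0.23, Stat3 -0.31 to 0.0568 and Socs3 -0.38 to 0.29. In the full deletion Lifr was 0.25 with summed counts, 0.0183 at a mean count of at least 50, 0.0171 with limma-trend and -0.17 to 0.11 with 1 sample left out. Stat3 was 0.00359 with summed counts, where the median of all genes was 0.32 against 0.04. There Il6st kept its sign but was -0.0558 against -0.361 in the main fit, and Jak1 was 0.473 against 0.186. Lif was too low for the mean count of at least 50. Between batches Il6st was -0.107 to 0.017 with 1 sample left out. The causes were not tested.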
